A study of Mus musculus with 2 samples.

Results

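The solute carriers are membrane proteins that move nutrients, metabolites, ions and drugs across the membranes of cells and organelles, and their genes are named Slc with a family number. In hepatocytes they bring amino acids, organic anions and metals in from the blood, exchange metabolites between cytosol and mitochondria, and return products to blood or bile. Many are set at the transcript level by nutrient supply, such as the amino acid carrier Slc38a2, or by hormones.

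The members are the genes whose single annotated symbol begins with Slc and a digit, without the organic anion transporting polypeptides (Slco) and without Slc10a2, Slc51a and Slc22a27. This gave 40 genes among the 1750 named genes of the table, each with 1 probe set. They were chosen by name, but with earlier results of these data known. Mouse liver RNA was hybridised to 2 arrays, 1 for each group, and each array held pooled RNA of 3 C57BL/6J mice, an inbred strain, aged 6 to 10 weeks at catheter surgery. All mice had a jugular vein catheter and received saline first. In the saline group the infusion went on and chow stayed available; in the parenteral nutrition (PN) group nutrients were infused from day 3 and food was taken away. Livers were taken on day 11, after 8 days, and the labels used here give no sex. Infusion and loss of food cannot be told apart in this design, and pooling hides the spread between mice.

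Values are log2 levels from RMA, a method that corrects, normalizes and summarises array signals. The authors kept only rows that differed by at least 1.5-fold between the arrays, so each member differs by selection, and a carrier without a value is not thereby equal in both pools. With 1 array a group there is no replicate check and no test, and every difference describes 2 pools. In bulk tissue, fewer cells of a type and less RNA per cell cannot be told apart. A background level of 3.26 was taken from 133 chemosensory receptor genes, as the median of their higher value; a lower level was set to this value before a fold was taken, and such a fold is written as a lower bound, "at least". Where 2 levels are given, the saline pool comes first. Levels of different genes come from different probes and are not compared as amounts. None of 10 hepatocyte markers had a named value, which in a table of selected rows says nothing about the tissue; Hamp, the hepatocyte gene for the iron hormone hepcidin, had a level of 11.87 with saline and 10.96 with PN.

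Of the 40 solute carrier genes, 26 had the higher level in the PN pool and 14 the lower. The 3 genes left out by the rule are not counted here and were also higher. Slc10a2 was 1.79-fold, Slc51a 1.83-fold and Slc22a27 7.24-fold higher. Among all named genes, 50.2% were higher. Differences of at least 2-fold were all in one direction: 5 members (12.5%) were at least 2-fold higher, against 7.6% of named genes, and 0 of 40 were at least 2-fold lower, against 7.2% of named genes. The 5 were Slc25a25, Slc16a5, Slc22a26, Slc20a1 and Slc38a2, whose proteins carry ATP-Mg and phosphate across the mitochondrial membrane, drugs, organic anions, phosphate, and neutral amino acids, respectively. They come from 4 of the 8 substrate classes. The members that were lower stopped at 1.81-fold, reached by Slc22a4.

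**Figure D1:**
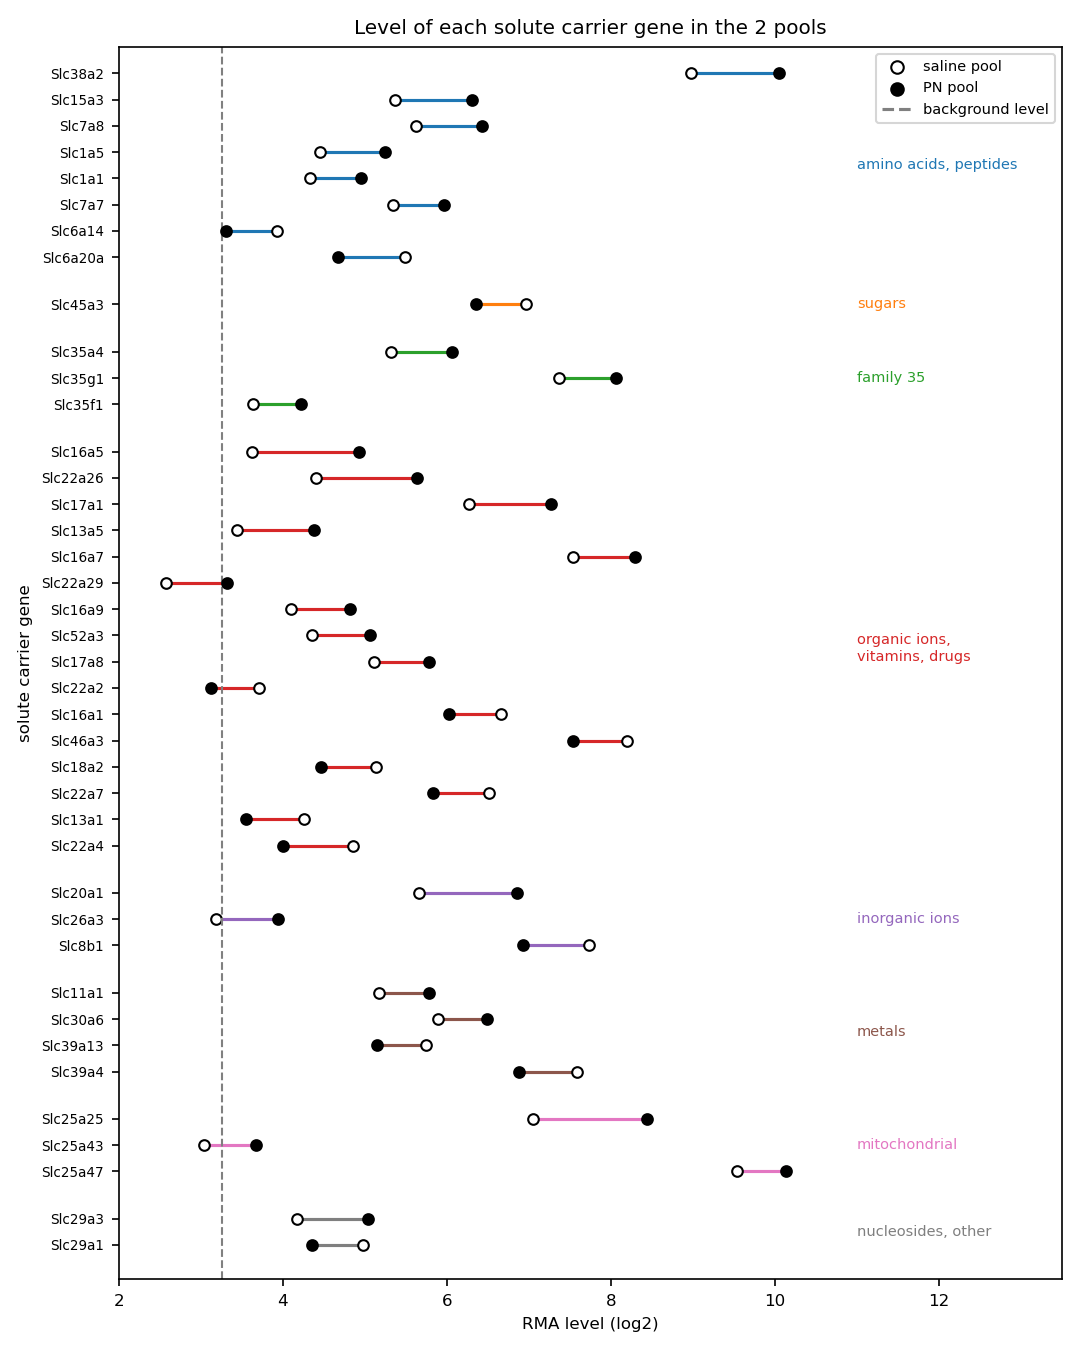
RMA level (log2, horizontal axis) of each solute carrier gene in the saline pool (open circles) and the PN pool (filled circles), sorted by substrate class and then by difference; the dashed line is the background level of 3.26. Each circle is 1 array with no error bar, and the open circle lies to the left for 26 genes and to the right for 14.

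The stretches upstream of the genes with the largest differences are shown because these members lead the family and could be read for known response motifs. Of the 5 members with the largest difference, 4 had an entry in RefSeq's promoter windows for GRCm38.p6, and the 250 bases before the start site are printed, 5′ to 3′ on the gene's strand. Capitals mark matches to 6 motifs: the cAMP response element TGACGTCA, the amino acid response element TGATGNAA, the metal response element in its forms TGCACNC and TGCGCNC, the E-box CACGTG and the STAT5 element TTCNNNGAA, on either strand. The motifs were picked after these windows had been seen. For genes with several start sites, the window with the cAMP element, or else with the most motif letters, is shown; Slc25a25 had 3 windows and Slc20a1 2.
Slc25a25, chr2:32424067-32424316, minus strand: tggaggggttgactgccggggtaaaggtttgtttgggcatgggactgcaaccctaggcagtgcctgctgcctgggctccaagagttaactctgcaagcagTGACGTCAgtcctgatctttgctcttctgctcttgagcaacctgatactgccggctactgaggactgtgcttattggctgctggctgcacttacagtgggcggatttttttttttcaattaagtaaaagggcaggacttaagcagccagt
Slc22a26, chr19:7802668-7802917, minus strand: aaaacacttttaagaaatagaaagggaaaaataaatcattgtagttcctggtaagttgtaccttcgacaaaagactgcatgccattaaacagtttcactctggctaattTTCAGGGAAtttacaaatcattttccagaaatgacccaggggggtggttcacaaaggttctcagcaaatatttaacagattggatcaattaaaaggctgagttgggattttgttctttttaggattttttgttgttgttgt
Slc20a1, chr2:129198523-129198772, plus strand: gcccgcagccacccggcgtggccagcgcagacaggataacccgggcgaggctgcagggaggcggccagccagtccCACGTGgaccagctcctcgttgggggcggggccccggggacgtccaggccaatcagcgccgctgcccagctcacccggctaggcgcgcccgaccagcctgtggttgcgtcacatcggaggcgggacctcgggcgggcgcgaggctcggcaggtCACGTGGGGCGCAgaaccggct
Slc38a2, chr15:96699729-96699978, minus strand: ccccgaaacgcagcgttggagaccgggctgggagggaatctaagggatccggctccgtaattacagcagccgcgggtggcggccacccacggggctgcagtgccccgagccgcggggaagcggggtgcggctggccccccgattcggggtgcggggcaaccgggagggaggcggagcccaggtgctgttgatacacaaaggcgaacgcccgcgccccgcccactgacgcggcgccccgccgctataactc

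The Slc25a25 window held a full cAMP response element 150 to 143 bases before the start. This motif was present in 1.55% of the 32851 windows of the table and in 1 of the 48 windows of the 30 members with an entry. In Slc22a26, the capitals are a STAT5 element 141 to 133 bases before the start, a motif of 7.02% of all windows and of 3 member windows, those of Slc22a26, Slc17a1 and Slc46a3. The Slc20a1 window held 2 E-boxes and, right after the one nearer the start, the metal element TGCGCNC on the other strand; the E-box was found in 6.02% of all windows and in 4 member windows. None of the 6 motifs matched in the window of Slc38a2, which says only that these letters are not in these 250 bases. The amino acid response element matched in 3 member windows, of Slc17a1 and Slc7a7, and in 3.45% of all windows. The metal element matched in 5 member windows as TGCACNC and in 6 as TGCGCNC, against 10.4% and 12.5% of all windows. Matches occurred upstream of genes that were higher and of genes that were lower: the E-box genes besides Slc20a1 were Slc16a1, Slc22a4 and Slc29a1, all lower. A match is a stretch of letters and not evidence of binding.

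Among the carriers of amino acids and peptides, 6 of 8 members were higher in the PN pool and 2 lower, and 63 further genes of the class had no named value. Of all named genes 50.2% were higher, and 8 genes are too few to set a direction for the class. The sodium-coupled carrier of small neutral amino acids, Slc38a2 (SNAT2), which cells are known to induce when amino acids run short, had 8.98 with saline and 10.05 with PN, 2.09-fold higher. It was the only member of its family with a value, of 11 genes. The exchanger Slc1a5 (ASCT2), which takes up glutamine, had 4.45 and 5.25, 1.74-fold higher. The glutamate and cysteine carrier Slc1a1 (EAAC1) had 4.33 and 4.96, 1.55-fold higher. Both members of family 1 with a value were thus higher.

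The light chains of 2 heterodimeric exchangers were also higher. Slc7a8 (LAT2), a carrier of large neutral amino acids, had 5.62 with saline and 6.42 with PN, 1.75-fold higher. Slc7a7 (y+LAT1), which exports cationic amino acids such as lysine and arginine, had 5.34 and 5.97, 1.54-fold higher. Both need the heavy chain encoded by Slc3a2, and no member of family 3 had a named value.

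The peptide and histidine carrier Slc15a3 (PHT2), a lysosomal protein best known from immune cells, had 5.37 with saline and 6.30 with PN, 1.91-fold higher. In contrast, both members of family 6 with a value, sodium- and chloride-coupled carriers, were lower. Slc6a20a, a carrier of proline and other imino acids, had 5.49 and 4.67, 1.76-fold lower. The broad neutral and cationic carrier Slc6a14 had 3.92 and 3.31, 1.53-fold lower, with a PN level just above background. Apart from Slc6a14 and Slc1a1, the amino acid carriers had a higher level of 5.18 or more, which is where the median of named genes lies.

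Slc15a3 was higher in the same pool as markers of macrophages. Of 10 such markers, 7 had a value, each of them higher with PN, from 1.53-fold for Clec4f to 5.15-fold for Marco. Among all named genes, 50.2% were higher. Marco, Clec4f, Cd68, Vsig4, Cd5l, Clec7a and Gpnmb were these 7, while Adgre1, Csf1r and Timd4 had none. The metal carrier Slc11a1 (NRAMP1) of macrophage phagosomes had 5.18 with saline and 5.79 with PN, 1.53-fold higher. The lysosomal nucleoside carrier Slc29a3 had 4.18 and 5.04, 1.82-fold higher. Slc46a3, another lysosomal carrier, had 8.19 and 7.53, 1.58-fold lower, so the 4 members known from lysosomes were not all in one direction. This grouping was made after the values were seen. The part of macrophage RNA in these differences was not tested.

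The 3 mitochondrial carriers of family 25 with a value were higher in the PN pool, and 44 others had none. With 50.2% of all named genes higher, 3 genes set no direction for the class. Slc25a25 (SCaMC-2), a calcium-regulated carrier that exchanges ATP-Mg for phosphate, had 7.05 with saline and 8.44 with PN. At 2.62-fold, or 1.39 on the log2 scale, its difference was the largest of the 40 members and the 40th highest among named genes. The liver-enriched carrier Slc25a47 had 9.54 and 10.14, 1.51-fold higher, close to the 1.5-fold limit of the table. Slc25a43 had 3.04 and 3.67 and was at least 1.32-fold higher, from a saline level under background. A further protein of the inner mitochondrial membrane went the other way: Slc8b1 (NCLX), which exchanges sodium for calcium, had 7.73 with saline and 6.93 with PN, 1.73-fold lower.

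**Figure D2:**
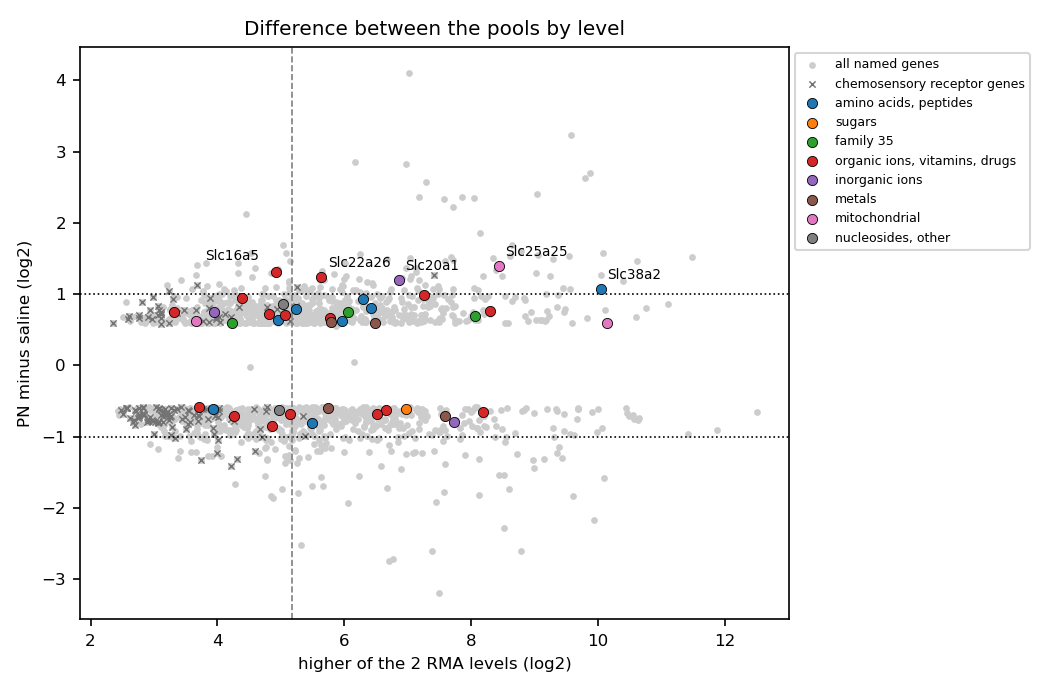
PN minus saline (log2, vertical axis) against the higher of a gene's 2 RMA levels (log2, horizontal axis) for all 1750 named genes (grey dots), the 133 chemosensory receptor genes (crosses) and the 40 solute carrier genes (coloured by class). Dotted lines mark a 2-fold difference and the dashed line the median level of 5.18; the 5 labelled members lie above the upper dotted line, no member lies below the lower one, and few genes lie near 0 because of the 1.5-fold cutoff.

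The class of organic ions, vitamins and drugs was the one with most members in the table, 16, of which 9 were higher and 7 lower. Classes follow family numbers, so it includes Slc13a1, whose substrate sulfate is an inorganic ion; without it 9 were higher and 6 lower. Of the 4 monocarboxylate carriers of family 16, 3 were higher. Slc16a5 (MCT6), known to carry drugs, had 3.62 with saline and 4.92 with PN, 2.47-fold higher, with a saline level near background. Slc16a7 (MCT2), a high-affinity lactate and pyruvate carrier, had 7.54 and 8.30, 1.69-fold higher. The related Slc16a9 had 4.10 and 4.82, 1.64-fold higher. Slc16a1 (MCT1), the widespread lactate carrier, went the other way, with 6.66 and 6.03, 1.55-fold lower.

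Family 13 was split. Slc13a5 (NaCT), which brings citrate from blood into hepatocytes, had 3.44 with saline and 4.38 with PN, 1.92-fold higher. The sulfate carrier Slc13a1, mainly a protein of kidney and gut, had 4.26 and 3.55, 1.63-fold lower. Both levels of each lay below the median of named genes.

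Family 17 was higher in its 2 members with a value. Slc17a1 (NPT1), a urate and organic anion carrier, had 6.27 with saline and 7.26 with PN, 1.99-fold higher, just short of 2-fold. Slc17a8 (VGLUT3), a vesicular glutamate carrier of neurons, had 5.12 and 5.78, 1.58-fold higher. The vesicular monoamine carrier Slc18a2 (VMAT2) had 5.14 and 4.46, 1.60-fold lower.

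The organic ion carriers of family 22 went both ways, with 2 members higher and 3 lower. Slc22a26 had 4.41 with saline and 5.64 with PN, 2.35-fold higher. Slc22a29 had 2.58 and 3.32, so its PN level only just passed background and it was at least 1.04-fold higher. These 2 belong to a group of organic anion carriers that lie side by side on chromosome 19: in RefSeq's gene order Slc22a26 is next to Slc22a27, which is left out here and was also higher, at 3.31 and 6.17, and 1 protein-coding gene separates that one from Slc22a29. Probe sets of such close copies can share target sequence, so which copy gave each signal is uncertain.

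The lower members of family 22 were better-known carriers. Slc22a4 (OCTN1), the ergothioneine carrier, had 4.85 with saline and 3.998 with PN, 1.81-fold lower, the largest difference among the 14 lower members. Slc22a7 (OAT2), a liver carrier of organic anions and nucleotides, had 6.52 and 5.83, 1.61-fold lower. Slc22a2 (OCT2), chiefly a kidney carrier of organic cations, had 3.71 and 3.12, at least 1.37-fold lower, with a PN level under background. The riboflavin carrier Slc52a3 was higher, with 4.35 and 5.06, 1.64-fold.

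Metal carriers were evenly divided, 2 higher and 2 lower, all with a higher level above the median of named genes. Zinc carriers of the uptake family 39 were the lower ones. Slc39a4 (ZIP4), which takes up zinc and is essential for its absorption in the gut, had 7.59 with saline and 6.88 with PN, 1.63-fold lower. Slc39a13 (ZIP13), of intracellular membranes, had 5.74 and 5.14, 1.51-fold lower. Slc30a6 (ZnT6), of the family that moves zinc out of the cytosol, had 5.89 and 6.49, 1.51-fold higher. Together with Slc11a1, given with the macrophage markers, these were the members of the class with a value, and 30 others had none. The zinc-binding metallothionein genes Mt1 and Mt2 and their regulator gene Mtf1 had no named value.

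Of the inorganic ion carriers, 3 of 60 had a value. Slc20a1 (PiT1), a sodium-coupled phosphate carrier, had 5.66 with saline and 6.86 with PN, 2.29-fold higher. Slc26a3 (DRA), the chloride and bicarbonate exchanger of the gut, had 3.19 and 3.94, at least 1.60-fold higher. The third was Slc8b1, lower as given with the mitochondrial proteins.

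Of the 29 sugar carriers, 1 had a value, and none of the 12 genes of family 2, which holds the glucose carriers, did. Only 40 of all 372 solute carrier genes had one, so these low counts are no result about sugar carriers. Slc45a3, a member of a family related to sucrose carriers, had 6.97 with saline and 6.35 with PN, 1.53-fold lower. Family 35, which supplies nucleotide sugars to the Golgi apparatus and includes several carriers of unknown substrate, had 3 of 27 genes with a value, all higher. So few genes set no direction for the family, as 50.2% of all named genes were higher. Slc35a4 had 5.32 and 6.06, 1.68-fold higher, and Slc35g1 7.37 and 8.06, 1.61-fold. Slc35f1, with 3.64 and 4.23, had the smallest measured difference of the 40 members, 0.59 on the log2 scale; with levels raised to background, those of Slc22a29, Slc25a43 and Slc22a2 were smaller. Of the nucleoside carriers, Slc29a1 (ENT1), of the plasma membrane, had 4.98 and 4.36, 1.54-fold lower, opposite to the lysosomal Slc29a3. No member of family 27, the fatty acid transport proteins, had a named value among its 6 genes.

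**Figure D3:**
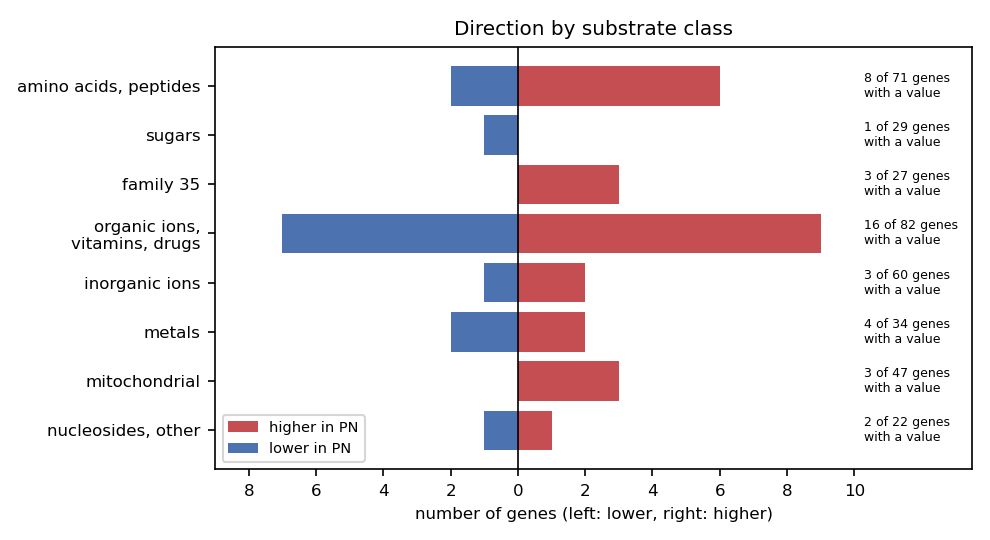
Number of solute carrier genes higher (red, right) and lower (blue, left) in the PN pool by substrate class, with the number that have a value among RefSeq's protein-coding genes of that class. Amino acid carriers had 6 higher and 2 lower and organic ion carriers 9 and 7, while family 35 and the mitochondrial carriers had 3 higher each and none lower. Of all named genes, 50.2% were higher.

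In all, 332 of RefSeq's 372 protein-coding solute carrier genes (the 3 left-out genes not counted) had no named value in the table, so a class is described only by its members that passed the cutoff. Higher members were the majority at both brighter and dimmer levels. Of the 24 members whose higher level was at or above 5.18, 16 were higher, against 52.7% of named genes of such level; of the 16 dimmer members, 10 were higher, against 47.7%. By that measure 60.0% of the members were bright. A level under background occurred in 4 members, Slc22a29, Slc25a43, Slc26a3 and Slc22a2. Background is a median here, so many receptor genes lie above it, and the 90th percentile of their higher level was 4.58. Slc13a5, Slc13a1, Slc35f1 and Slc6a14 also stayed below 4.58, with higher levels of 4.38, 4.26, 4.23 and 3.92. Their folds are likewise limited by signal in the range of receptor genes.

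Most differences were small. Of the 40 members, 29 differed by less than 1.75-fold. The median size was 0.71 on the log2 scale, near that of all named genes, 0.73, and of receptor genes, 0.71. Higher members had a median difference of 0.75 and lower members of -0.67; among named genes these were 0.73 and -0.72. The differences of Slc25a25, Slc16a5, Slc22a26 and Slc20a1 exceeded 1.11, the 95th percentile of the size among receptor genes, and the other 36 members did not. These 4 are 10.0% of the members, close to the 9.66% of named genes past the same value, so the share is no result about the members. Receptor genes passed the same cutoff and are dimmer, with 32 of 40 members above the 90th percentile of their higher level, 4.58.

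**Figure D4:**
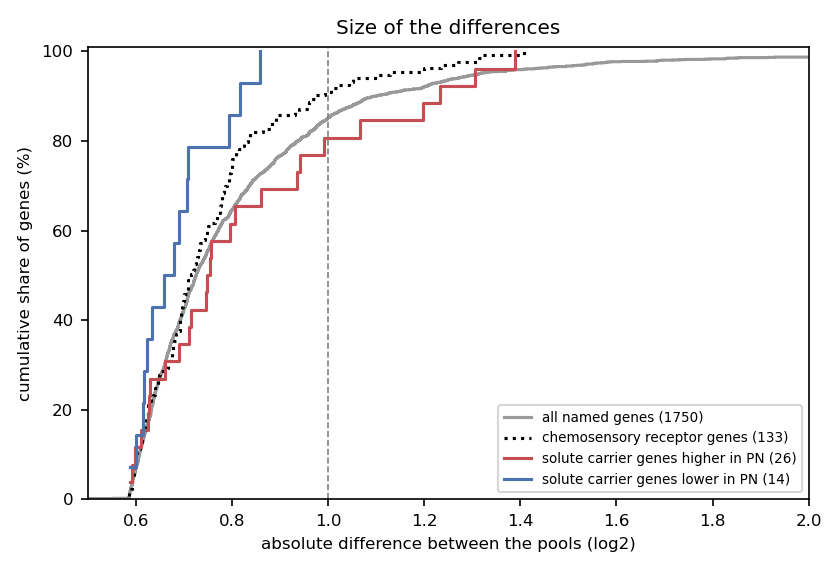
Cumulative share of genes (percent, vertical axis) by absolute difference between the pools (log2, horizontal axis, drawn up to 2.0), for named genes, receptor genes and solute carrier genes of each direction; the dashed line marks 2-fold. All 14 lower members lie left of the dashed line, and 5 of the 26 higher members lie to its right.

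Other transporter genes in the table, taken by name, were 11 of 116 RefSeq genes, with 7 higher and 4 lower. Of these, 1 was at least 2-fold higher and 0 at least 2-fold lower. The shares of all named genes were 50.2% higher, 7.6% at least 2-fold higher and 7.2% at least 2-fold lower. These 11 genes are too few to be set apart from those shares. They comprised 6 of 50 ABC transporters, 2 of 14 Slco genes, 1 of 11 aquaporins and 2 of 41 P-type pump genes. The largest difference among them was that of Abcd2, a peroxisomal carrier of fatty acyl-CoA, with 4.72 and 7.29, 5.97-fold higher and past that of every solute carrier member. Slc22a27, which is not counted as a member, differed more, by 7.24-fold. Abcg2, an efflux pump of bile canaliculi for drugs and urate, had 7.86 with saline and 7.17 with PN, 1.62-fold lower. Aqp8, a water channel of hepatocytes, had 6.34 and 5.59, 1.68-fold lower. The phospholipid flippase genes Atp8a1 and Atp10d were 1.60-fold and 1.56-fold higher. The difference between these genes and the solute carriers was not tested.

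Of 33 listed partners and regulators of carriers, 5 had a named value. Sgk1, a kinase that raises the surface amount of many carriers, had 5.89 with saline and 6.94 with PN, 2.07-fold higher. G6pc, the glucose-6-phosphatase that works with the Slc37a4 carrier in glucose release, had 9.22 and 10.40, 2.26-fold higher, while Slc37a4 itself had no named value. Hamp2 was 1.91-fold higher and Hamp 1.88-fold lower; these are close copies, so which one gave each signal is uncertain. Foxa2, a hepatocyte transcription factor gene, was 1.51-fold lower. Atf4, Ddit3 and Sesn2, known from the response to amino acid shortage, had no named value.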

How the data were processed

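Liver RNA of 2 groups was measured, with 1 array of pooled RNA each. The authors deposited log2 values from RMA, computed in Affymetrix Expression Console 1.4.0.38 per the submitters' processing notes, and kept rows by a 1.5-fold cutoff per the series' design text. The smallest absolute difference in the table is 0.585, which is log2 of 1.5. The genome build is not given in the sources used here, nor is the set of arrays that RMA normalized.

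The platform annotation names 1 gene for 1779 of 5082 rows, more than 1 for 161 and no gene for 3142; rows naming 1 gene were averaged per gene. All 40 members matched RefSeq (GRCm38.p6) by Entrez identifier. The difference is PN minus saline with no pseudocount. Substrate classes follow family numbers. Members, lists, classes and the background level were chosen with earlier results of these data known. Every member may be named; both levels are given for those at or above the median level and for the 3 highest and 3 lowest differences of each class, and in effect for all 40. No p-value was computed, and 2 arrays limit the precision. The counting of directions was checked on simulated data without noise, among 1750 genes, which checks the arithmetic alone. Python 3.11.15, pandas 2.3.3, numpy 2.4.6, scipy 1.17.1 and matplotlib 3.10.9 were used. Alternatives were centring, background handling, the 2-fold cutoff, rows with several symbols, the brightest row and bright genes.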

Additional observations from a re-analysis of the deposited data

How the results depend on the processing

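The share of solute carrier genes that were higher, 65.0% (26 of 40), and the shares by class were recomputed under the alternatives. Shares above or below 50% did not cross it, though the 3 inorganic ion carriers came to 1 of 2 among bright genes. The metal carriers, 2 of 4 higher, had 3 of 4 higher when centred and 2 of 5 with rows of several symbols counted, so this class has no settled direction. An alternative counted as a move where the share left the exact Clopper-Pearson 95% interval of the share as reported, which covers draws of genes and not the pools. That interval ran from 6.76% to 93.2% for the 4 metal carriers and from 0% to 97.5% for the 1 sugar carrier. A share of so few genes can hardly leave it, so the lack of a move in a small class shows no stability. Among genes that differ by at least 2-fold, the share was 100% for all solute carriers (5 genes), amino acid carriers (1), organic ion carriers (2), inorganic ion carriers (1), other transporters (1) and partners and regulators (2), since no lower gene passes; sugar, metal, family 35 and nucleoside carriers then have no gene. The median difference of the members, 0.63 on the log2 scale, was 0.62 with levels raised to background, 1.23 among genes of at least 2-fold, 0.63 with rows of several symbols counted, 0.64 among genes at or above the median level, and, in alternatives chosen after seeing the data, 0.66 with the 3 left-out genes and 0.63 without Slc22a26 and Slc22a29. Among all named genes the median was 0.59, and among named genes other than the members it was -0.59. In a table cut at 1.5-fold, such a median shows mainly which direction holds the majority. It is no measure of a shift of the members. Centring on the median difference of all rows, -0.60, gave a median of 1.23. The table holds almost no difference near 0, so that median lies at the edge of the gap and the centring adds 0.60 to every gene; it turned Slc22a2 to 0.0154 and Slc39a13 to 0.0033. Every member has 1 row, so the brightest row changed none of them. No paired analysis was possible because each group has 1 array. Dim members, such as Slc22a29, are limited by signal near background.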

Other observations

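Rows shared by several gene symbols were counted for no gene, and 2 of them include a solute carrier. The row of Slc30a10, which encodes a manganese exporter of liver and gut, and the predicted gene Gm2061 had 7.01 with saline and 6.30 with PN, 1.64-fold lower. The other, of Slc51b and Rasl12, was lower as well, with 3.71 and 2.74. Its PN level was under background and both levels were below 4.58, so the size of this difference is limited by signal.

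The few markers of some other epithelia and of blood cells that had a value were lower in the PN pool. Of 7 cholangiocyte markers 2 had a named value, of 7 erythroid markers 2 and of 7 exocrine pancreas markers 3. These 7 genes were all lower, as were 872 of 1750 named genes and 91 of 133 receptor genes. Epcam, Prss2 and Zg16 had no level above 4.58, the 90th percentile of the higher level of receptor genes. A change in these cell types was not tested. Of 6 markers of gut and kidney epithelium 1 had a value, Fabp2, a fatty acid binding protein gene that was higher, at 9.95 with saline and 10.76 with PN. Slc39a4, Slc26a3, Slc13a1 and Slc22a2, described above by a role in gut or kidney, went in different directions, with Slc26a3 higher and the other 3 lower. This set was picked after the values were seen and is not a full list of such carriers. The split therefore says nothing about them as a group. Slc26a3, Slc13a1 and Slc22a2 had higher levels of 3.94, 4.26 and 3.71, also below 4.58.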
